A study of Arabidopsis thaliana with 24 samples.

Results

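LTI30, COR47 and COR15A are 3 genes of Arabidopsis thaliana whose transcripts accumulate when plants are dried, chilled or given abscisic acid. They were taken as the probe sets annotated singly to LTI30 (AT3G50970), COR47 (AT1G20440) and COR15A (AT2G42540), 3 of the 13513 probe sets with a single gene and of the 22746 tested. RNA came from roots and shoots of accession Col-0, the wild type (WT), and of oas-a1.1, one SALK line mutated in OASA1, which encodes the O-acetylserine(thiol)lyase of the cytosol, the last step of cysteine synthesis. All plants spent 2 weeks on plates and 2 weeks of acclimation in hydroponic culture, and either stayed untreated or received CdCl2, with roots harvested after 18 h of cadmium and shoots after 24 h. The sample labels give no harvest hour for the untreated plants, so effects of cadmium and of harvest time cannot be told apart. The concentration of cadmium is uncertain, because the design text has 50 µM where the protocols of the samples have 50 mM. Organ, genotype and treatment together made 8 groups of 3 biological replicates, and each replicate was hybridised to an Affymetrix ATH1 array and is read here as a log2 RMA value per probe set.

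Dehydrins are hydrophilic, largely unfolded proteins of the late embryogenesis abundant (LEA) class that protect membranes and enzymes when cells lose water. LTI30 and COR47 are dehydrins: LTI30 is a basic protein that binds membranes, and COR47 is an acidic one. COR15A is a LEA protein of another group that is imported into chloroplasts and protects their membranes during freezing. Transcription of such genes is driven in the cold by the CBF factors and under drought by abscisic acid signalling.

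Some facts of the arrays bear on the values below. On 8 arrays, of which 6 were a replicate 1, the 25S ribosomal RNA control lay at 4.62 to 6.0, below its 7.72 to 11.96 on the remaining 16. The largest fall in all 4 mutant against WT comparisons lay in one probe set with no gene listed, at 10.48 to 12.28 on WT arrays and 4.05 to 4.51 on mutant arrays. Whether that probe set reads OASA1 was not tested, and OASA1 itself was not read by name. Of the organ markers, 3 of 10 root markers and 1 of 11 shoot markers had a named probe set. PYK10, a root beta-glucosidase, averaged 11.99 ± 0.14 (SD, n = 3) in untreated WT roots and 4.34 ± 0.16 in untreated WT shoots, and RCA, which activates Rubisco, averaged 6.29 ± 0.22 and 12.44 ± 0.14. Because whole organs were used, fewer cells of a type and less RNA per cell cannot be told apart.

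LTI30 read higher in roots than in shoots of these plants. In untreated WT roots it read 11.95, 11.97 and 11.76 on the log2 scale on replicates 1 to 3. In cadmium-treated WT roots it read 9.93, 9.70 and 10.23. The 2 groups did not overlap, and every treated array lay lower. Untreated mutant roots read 10.61, 11.56 and 12.25, a wide spread in which the lowest value came from the array with a low 25S control. Cadmium-treated mutant roots read 10.90, 10.94 and 10.73, within the range of the untreated mutant arrays and above all the treated WT arrays. In shoots the values were 8.62, 8.36 and 7.36 in untreated WT and 7.39, 7.01 and 6.59 in cadmium-treated WT. Untreated mutant shoots read 6.75, 7.23 and 7.43, and cadmium-treated mutant shoots 7.44, 8.34 and 7.91. All 12 root arrays lay above all 12 shoot arrays. The order of the group means ran from 11.89 in untreated WT roots through 11.47 in untreated mutant, 10.86 in treated mutant and 9.95 in treated WT roots to 8.11 in untreated WT, 7.90 in treated mutant, 7.14 in untreated mutant and 7.0 in treated WT shoots. Neighbours in that order overlapped except treated mutant and treated WT roots, treated WT roots and untreated WT shoots, and treated and untreated mutant shoots.

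**Figure D1:**
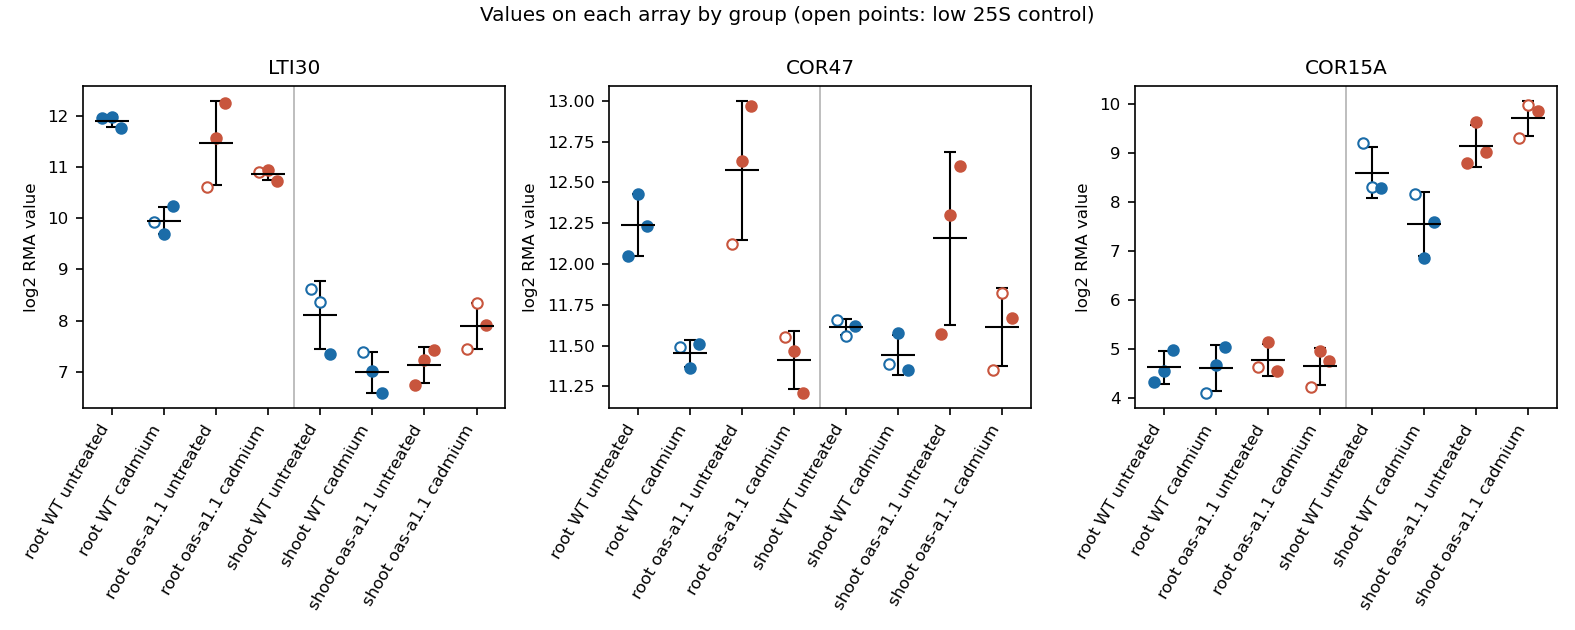
Log2 RMA values of LTI30, COR47 and COR15A on each of the 24 arrays, by group, with a panel and a vertical scale for each gene. Points are arrays (blue WT, red oas-a1.1, open where the 25S control read below 7), and black bars give the mean and SD of 3 arrays. LTI30 is high in roots, COR15A is high in shoots, and COR47 spans only 11.21 to 12.97.

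COR47 was high in every group. Untreated WT roots read 12.05, 12.43 and 12.23, and cadmium-treated WT roots 11.49, 11.36 and 11.51. Untreated mutant roots read 12.12, 12.63 and 12.97, and cadmium-treated mutant roots 11.55, 11.47 and 11.21. In both genotypes each treated root array lay below each untreated one. WT shoots read 11.66, 11.56 and 11.62 untreated and 11.39, 11.58 and 11.35 with cadmium. Untreated mutant shoots read 11.57, 12.30 and 12.60, and cadmium-treated mutant shoots 11.35, 11.82 and 11.67. The shoot groups overlapped except that 2 of the 3 untreated mutant arrays stood above all other shoot arrays. From the highest mean, 12.57 ± 0.43 (SD, n = 3) in untreated mutant roots, to the lowest, 11.41 ± 0.18 in treated mutant roots, neighbours in the order overlapped, with 1 exception: untreated WT shoots, at 11.61 ± 0.05, stood above treated WT roots, at 11.45 ± 0.08, without overlap.

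COR15A was a shoot transcript. On the 12 root arrays it read 4.11 to 5.15, with group means of 4.61 to 4.78, and all 4 root groups overlapped. The lowest value of any tested probe set on these arrays was 3.27, and the deposited values carry no detection calls, so whether the root values stand above background was not tested. Untreated WT shoots read 9.20, 8.30 and 8.29, and cadmium-treated WT shoots 8.16, 6.86 and 7.60, every treated array lower than every untreated one. Untreated mutant shoots read 8.80, 9.62 and 9.01, and cadmium-treated mutant shoots 9.29, 9.97 and 9.84. Treated mutant shoots had the highest mean, 9.70 ± 0.36 (SD, n = 3), followed by untreated mutant shoots at 9.14 ± 0.43, untreated WT shoots at 8.60 ± 0.52 and treated WT shoots at 7.54 ± 0.65. The first 3 of these groups overlapped their neighbours, and treated WT shoots overlapped no other group.

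The difference between organs was tested in untreated plants only, since treated roots and shoots had different hours of cadmium. Whether untreated roots and shoots were harvested at the same hour is not given. LTI30 was 3.78 ± 0.35 (SE) log2 units higher in roots than in shoots of WT, 13.7-fold (n = 3 and 3, adjusted p = 1.01e-08, limma), and 4.34 ± 0.35 higher in the mutant (adjusted p = 1.13e-09, limma). COR15A was lower in roots, at -3.97 ± 0.33 in WT (adjusted p = 2.85e-09, limma) and -4.37 ± 0.33 in the mutant (adjusted p = 5.85e-10, limma), and since its root values may be background, each size is to be read as a lower bound. COR47 was 0.62 ± 0.21 higher in WT roots (adjusted p = 0.0214, limma), and in the mutant it read 0.42 ± 0.21 higher with adjusted p = 0.123 (limma). Thus 3 of 3 genes passed in WT and 2 of 3 in the mutant, where 44.2% (23.1% higher and 21.2% lower in roots) and 45.2% (24.1% and 21.2%) of all probe sets did. The call of COR47 in WT was lost without replicate 2 of either organ (0.53 to 0.72 over the 6 arrays left out) and when the 25S control was added to the model (adjusted p = 0.066, limma). The effect of the mutation did not pass as different between untreated roots and shoots for any of the 3 genes (0 of 3 by limma, 0 at an unadjusted p under 0.05, against 0.761% of all probe sets called): the differences were 0.56 (95% interval -0.46 to 1.58) for LTI30, -0.21 (-0.84 to 0.42) for COR47 and -0.40 (-1.39 to 0.59) for COR15A.

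In WT roots both dehydrin genes fell under cadmium and COR15A did not pass. LTI30 fell from 11.89 ± 0.12 (SD, n = 3) to 9.95 ± 0.27, by 1.94 ± 0.31 (SE) log2 units or 3.84-fold (adjusted p = 0.00596, limma). COR47 fell from 12.24 ± 0.19 to 11.45 ± 0.08, by 0.78 ± 0.19 or 1.72-fold (adjusted p = 0.0469, limma). COR15A read -0.02 ± 0.27 (95% interval -0.62 to 0.58), near the bottom of its range. So 2 of 3 genes were called lower and 0 higher, beside 3.91% of all probe sets called, 2.27% lower and 1.64% higher, and the median difference was -0.78 over the 3 genes against 0.02 over all probe sets. The call of LTI30 held without each of the 6 arrays in turn, with adjusted p between 0.0155 and 0.0307 (limma). That of COR47 was lost without any one of them, with adjusted p from 0.0795 to 0.194 (limma), also lost when adjusted for the 25S control (adjusted p = 0.0602, limma) or with median centring (adjusted p = 0.0537, limma), and kept on arrays with a high 25S control (adjusted p = 0.0313, limma). In the same arrays PYK10 rose by 0.71 ± 0.12 (adjusted p = 0.00694, limma) and the root-hair expansin genes EXPA18 and EXPA7 read 0.52 and 0.09. RCA read 6.12 to 6.54 in untreated and 7.10 to 7.77 in treated WT roots, higher by 1.24 ± 0.30 (adjusted p = 0.0455, limma), a call kept only without treated replicate 1 and lost without each of the other 5 arrays (adjusted p up to 0.166, limma). The part of these shifts in the dehydrin results was not tested.

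In mutant roots COR47 fell under cadmium and LTI30 did not pass. COR47 went from 12.57 ± 0.43 (SD, n = 3) to 11.41 ± 0.18, a fall of 1.16 ± 0.19 (SE) log2 units or 2.24-fold (adjusted p = 0.00585, limma), and the call held without each array in turn. LTI30 went from 11.47 ± 0.82 to 10.86 ± 0.11, a difference of -0.62 ± 0.31 (95% interval -1.31 to 0.07, adjusted p = 0.452, limma). Without untreated mutant replicate 1, a low-25S array that read 10.61, the LTI30 difference was -1.05 with adjusted p = 0.0252 (limma), and on high-25S arrays -1.07 with adjusted p = 0.0696 (limma). COR15A read -0.12 ± 0.27. In this genotype 1 of 3 genes was called lower, beside 4.26% of all probe sets, 1.81% lower and 2.46% higher, and RCA and PYK10 read 0.36 and 0.57, the latter past the threshold (adjusted p = 0.0196, limma) but not on the compared arrays alone (adjusted p = 0.0558, limma), on high-25S arrays (adjusted p = 0.131, limma), or without untreated replicate 1 or treated replicate 2 or 3 (adjusted p up to 0.074, limma).

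**Figure D2:**
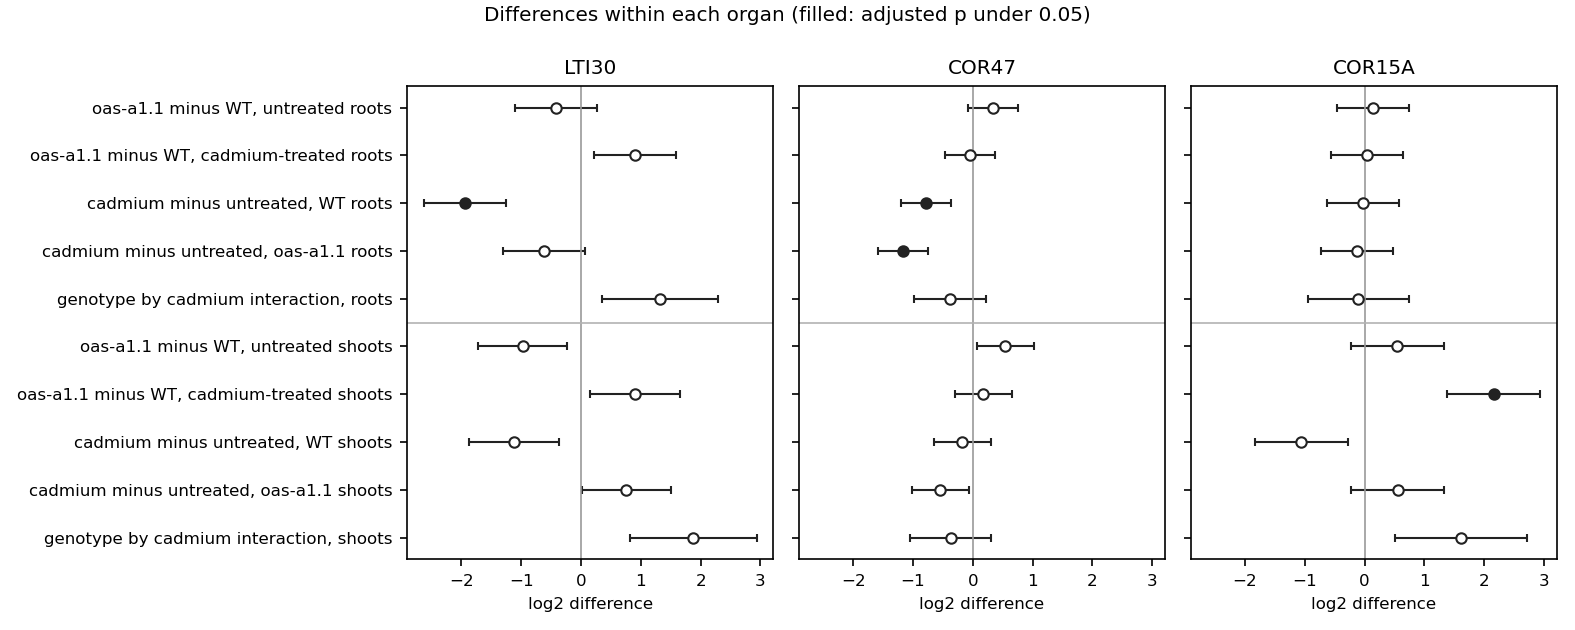
Log2 differences of LTI30, COR47 and COR15A with 95% intervals from limma in the 10 comparisons within an organ, roots above the grey line and shoots below it; the interaction is the cadmium response of oas-a1.1 minus that of WT. Filled points passed an adjusted p of 0.05: LTI30 and COR47 in WT roots under cadmium, COR47 in mutant roots under cadmium, and COR15A between genotypes in treated shoots.

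Whether the genotypes differed was asked directly in roots. In untreated roots 0 of 3 genes passed by limma, beside 0.356% of all probe sets called, and 0 had an unadjusted p under 0.05. Mutant minus WT was -0.42 ± 0.31 (SE) for LTI30, 0.34 ± 0.19 for COR47 and 0.15 ± 0.27 for COR15A. Without untreated mutant replicate 1 the LTI30 difference was 0.01. Under cadmium LTI30 read 0.90 ± 0.31 higher in the mutant, 1.87-fold, with 3 of 3 mutant arrays above all WT arrays, but adjusted p = 0.249 (limma), and 0.178 with replicate number as a block. COR47 and COR15A differed by -0.04 ± 0.19 (95% interval -0.47 to 0.38) and 0.04 ± 0.27 (-0.56 to 0.64). None of the 3 was called there, beside 1.74% of all probe sets called, 395 in number and 672 with the block. An unadjusted limma p under 0.05, for which no share of all probe sets is given here, was seen for 1 of the 3. The cadmium response of LTI30 was 1.32 ± 0.44 higher in the mutant than in WT (95% interval 0.35 to 2.3, adjusted p = 0.297, limma), that of COR47 differed by -0.38 ± 0.27 and that of COR15A by -0.10 ± 0.39. None of the 3 interactions passed in roots, beside 0.747% of all probe sets called. An unadjusted limma p under 0.05, again without a share of all probe sets, was seen for 1 of them. A fall of LTI30 past the threshold in WT and not in the mutant is therefore not shown to differ between them. These comparisons share groups of arrays, so they are not independent of each other.

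In shoots the genotypes stood apart for COR15A under cadmium. It averaged 9.70 ± 0.36 (SD, n = 3) in treated mutant shoots and 7.54 ± 0.65 in treated WT shoots, higher by 2.16 ± 0.35 (SE) log2 units or 4.47-fold, with 3 of 3 mutant arrays above all WT arrays (adjusted p = 0.0495, limma). It was the one called of the 3 genes, beside 0.0703% of all probe sets called higher and 0.154% in either direction. The difference lay between 1.82 and 2.47 without single arrays, and the call, close to the threshold, was kept only without treated WT replicate 1 (adjusted p = 0.0366, limma). Without each of the other 5 arrays it was lost, with adjusted p up to 0.221 (limma). With replicate number as a block adjusted p was 0.0817 (limma), and on the 6 arrays alone 0.0773 (limma). Treated mutant shoots held 2 arrays with a low 25S control and treated WT shoots 1. COR15A averaged 9.63 on the low and 9.84 on the other mutant array, against 8.16 on the low and 7.23 on the other WT arrays, and adjusting for the 25S control gave 2.08 with adjusted p = 0.0689 (limma). LTI30 read 0.90 ± 0.34 higher in treated mutant shoots without overlap (adjusted p = 0.424, limma), and COR47 0.17 ± 0.22 higher (95% interval -0.30 to 0.65).

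Cadmium against untreated shoots gave values of opposite sign in the genotypes for LTI30 and COR15A, none past the threshold. In WT shoots LTI30 read -1.12 ± 0.34 (SE, adjusted p = 0.09, limma), COR15A -1.06 ± 0.35 (adjusted p = 0.125, limma) and COR47 -0.17 ± 0.22. In mutant shoots LTI30 read 0.76 ± 0.34 (adjusted p = 0.348, limma), COR15A 0.56 ± 0.35 (adjusted p = 0.57, limma) and COR47 -0.54 ± 0.22 (adjusted p = 0.279, limma). By limma 0 of 3 genes were called in either genotype, beside 5.58% of all probe sets called in WT and 2.18% in the mutant. In each genotype 2 of 3 genes had an unadjusted limma p under 0.05. The share of all probe sets at that unadjusted level is not given here. The response was higher in the mutant than in WT by 1.88 ± 0.48 for LTI30 (95% interval 0.82 to 2.93, adjusted p = 0.124, limma) and by 1.61 ± 0.50 for COR15A (0.51 to 2.72, adjusted p = 0.199, limma), and for COR47 the difference was -0.37 ± 0.31. Of the interactions 0 of 3 passed, beside 0.444% of all probe sets called. An unadjusted limma p under 0.05, again without a share of all probe sets, was seen for 2 of them. The plot of shoot values shows the crossing lines of LTI30 and the diverging lines of COR15A.

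**Figure D3:**
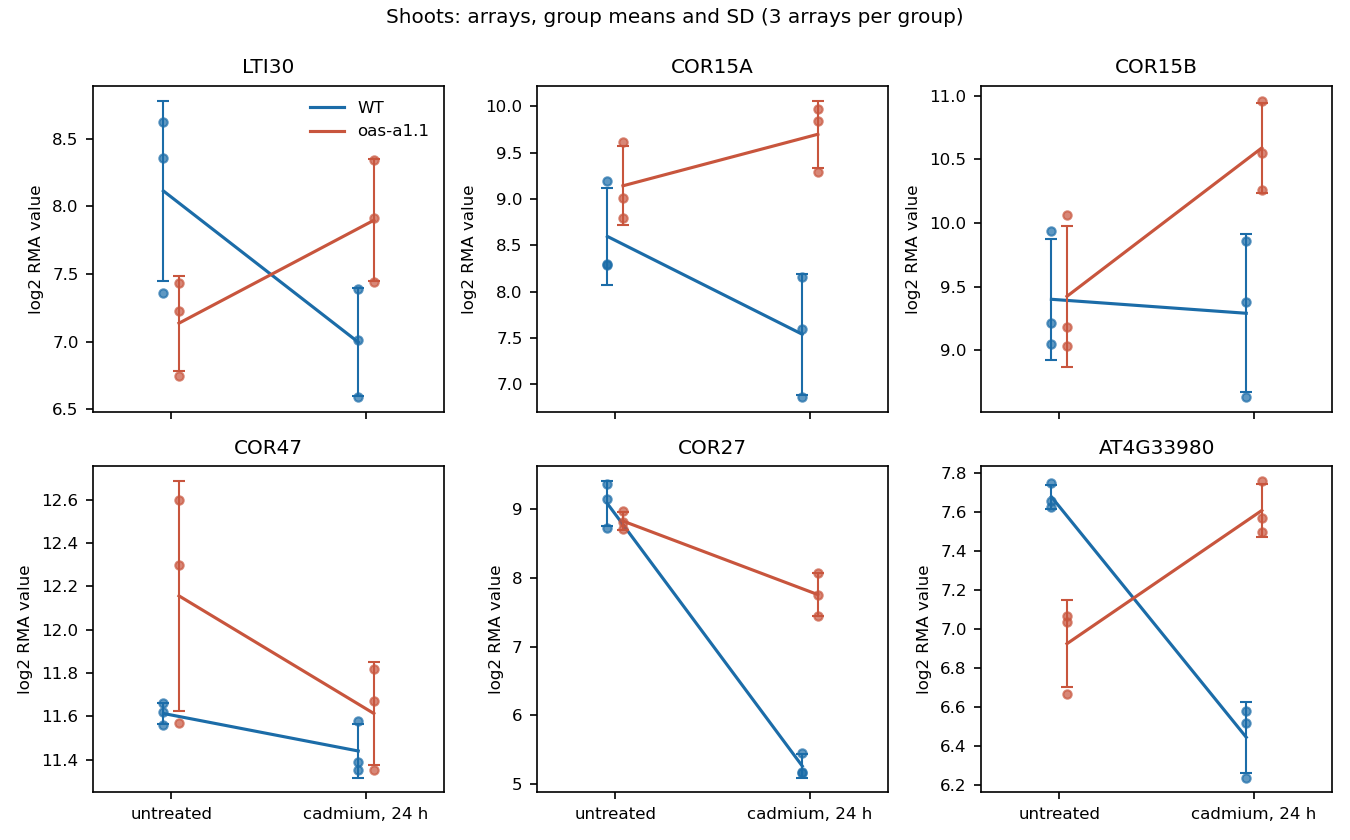
Log2 RMA values in untreated and cadmium-treated shoots for LTI30, COR15A, its neighbour COR15B, COR47, COR27 and AT4G33980, each panel with its own vertical scale. Points are arrays, lines join group means and bars are the SD of 3 arrays (blue WT, red oas-a1.1). Treated mutant shoots lie above treated WT shoots on every array for all of these genes but COR47. Only COR15A, COR27 and AT4G33980 passed in that comparison. The genes were chosen with earlier results of these data known, and the share of all probe sets separated in this way is not given here.

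The values of LTI30 in untreated WT shoots rested on which arrays were read. Replicates 1 and 2, at 8.62 and 8.36, had a low 25S control, and replicate 3, at 7.36, did not. Without replicate 3 the cadmium difference in WT shoots was -1.49 (adjusted p = 0.0147, limma), that between untreated mutant and WT shoots -1.35 (adjusted p = 0.0355, limma) and the interaction 2.25 (adjusted p = 0.0184, limma), all past the threshold. Adjusted for the 25S control, the same 3 differences were -1.07 (adjusted p = 0.0474, limma), -0.72 (adjusted p = 0.288, limma) and 1.46 (adjusted p = 0.204, limma). On arrays with a high 25S control, where replicate 3 is the only untreated WT array, they were smaller and not called, at -0.56 (adjusted p = 0.673, limma), -0.22 (adjusted p = 0.901, limma) and 1.33 (adjusted p = 0.685, limma). With all arrays, untreated mutant shoots read -0.98 ± 0.34 (SE) against WT for LTI30 (adjusted p = 0.2, limma), 0.54 ± 0.22 for COR47 (adjusted p = 0.265, limma) and 0.55 ± 0.35 for COR15A (adjusted p = 0.564, limma). By limma 0 of 3 passed, beside 1.46% of all probe sets called. An unadjusted limma p under 0.05, for which no share of all probe sets is given here, was seen for 2 of the 3. COR47 depended likewise on untreated mutant replicate 1, which read 11.57. Without it COR47 was 0.84 higher in untreated mutant than WT shoots (adjusted p = 0.019, limma) and fell by 0.84 under cadmium in the mutant (adjusted p = 0.0161, limma).

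Of 99 further entries for dehydrins, cold and dehydration effectors, CBF and related regulators, abscisic acid genes and compatible solute synthesis, 10 had a named probe set. None of the abscisic acid genes and none of the CBF genes was among them. The remaining 4 dehydrin genes did not pass in any comparison within an organ. HIRD11, a histidine-rich dehydrin, read high on every array, from 11.70 to 12.86, with differences of -0.49 in WT roots and -0.41 in mutant roots under cadmium. LEA, AT4G38410 and AT4G39130 read low, between 4.01 and 6.11. Of all 6 measured dehydrin genes, LTI30 and COR47 included, 3 read higher under cadmium in WT roots (LEA, AT4G38410 and AT4G39130). In mutant roots 1 did (LEA). COR15B, a close relative of COR15A and its direct neighbour on the chromosome, was also a shoot transcript, at 4.78 ± 0.34 (SD, n = 3) in untreated WT roots and 9.40 ± 0.47 in untreated WT shoots. In treated shoots it read 10.26, 10.96 and 10.55 in the mutant and 9.86, 8.63 and 9.38 in WT, without overlap, a difference of 1.30 ± 0.36 (SE). Its cadmium difference in mutant shoots was 1.17 ± 0.36 and that in WT shoots -0.11 ± 0.36. None of these COR15B values within shoots passed. Whether the probe sets of this pair bind each other's transcripts was not tested.

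COR27, which is induced by cold and represses clock genes, and its relative AT4G33980 passed in more of the comparisons within an organ than any other listed gene. COR27 fell under cadmium in every organ and genotype, with log2 differences of -3.51 and -3.54 in WT and mutant roots, -3.81 in WT shoots and -1.07 in mutant shoots. AT4G33980 fell in WT and mutant roots (-2.92 and -1.19) and in WT shoots (-1.23), and rose in mutant shoots (0.68). Without cadmium it was already lower in the mutant, at -1.56 in roots and -0.75 in shoots. Some of these calls depended on single arrays. That of AT4G33980 in mutant shoots under cadmium was lost without untreated replicate 3 or treated replicate 1 or 2 (adjusted p up to 0.0873, limma), and that of COR27 there without untreated replicate 2 or treated replicate 1 or 2 (adjusted p up to 0.058, limma). The call of AT4G33980 between untreated shoots was lost without replicate 1 or 2 of WT or 2 or 3 of the mutant (adjusted p up to 0.0912, limma), and that in untreated roots without WT replicate 1 (adjusted p = 0.0533, limma). On high-25S arrays none of the shoot calls of AT4G33980 was kept, and of COR27 that in WT shoots was. In treated shoots both were higher in the mutant, COR27 by 2.49 and AT4G33980 by 1.16, the comparison in which COR15A was called. STZ, a zinc-finger repressor induced by cold and salt, read 1.68 higher under cadmium in mutant roots (adjusted p = 0.043, limma), a call lost without any one of the 6 arrays (adjusted p from 0.0791 to 0.149, limma), with the replicate block (adjusted p = 0.0529, limma) and on high-25S arrays (adjusted p = 0.224, limma). LEA4-5, a LEA protein gene, and ALDH7B4, an aldehyde dehydrogenase gene induced by loss of turgor, did not pass in any comparison within an organ. In WT roots under cadmium 0 of the 10 were called higher and 2 lower, in mutant roots 1 and 2, in WT shoots 0 and 2, and in mutant shoots 1 and 1, where 3.91%, 4.26%, 5.58% and 2.18% of all probe sets were called. Between treated mutant and WT shoots 2 were called higher and 0 lower, beside 0.154% of all probe sets. All of these calls but that of STZ belong to COR27 and AT4G33980. The median of the 10 differences lay between -0.105 and 0.155 in the 10 comparisons within an organ, against -0.02 to 0.02 over all probe sets.

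**Figure D4:**
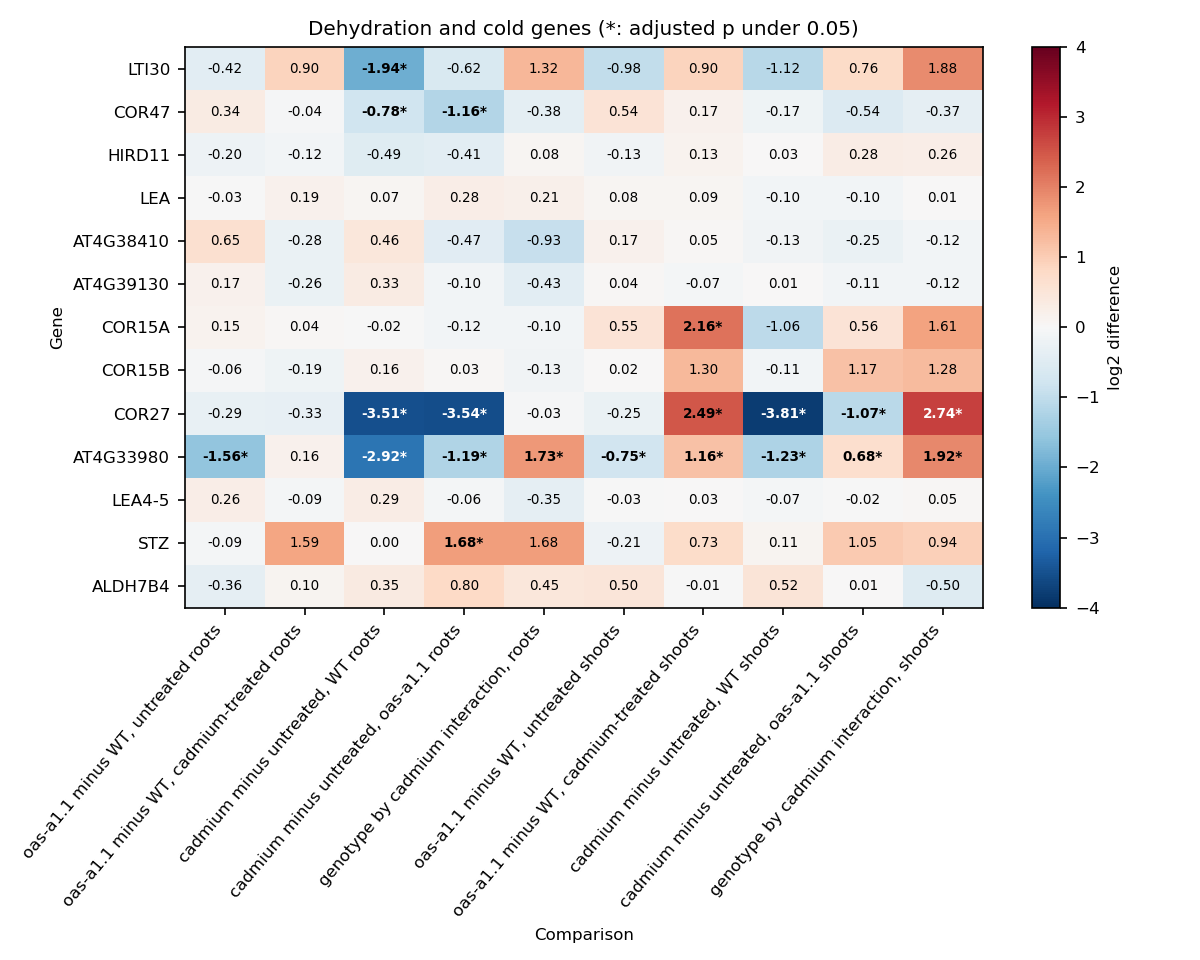
Log2 differences of LTI30, COR47, COR15A and the 10 other listed genes with a named probe set (rows) in the 10 comparisons within an organ (columns), coloured from blue (lower) to red (higher). Asterisks mark an adjusted p under 0.05 by limma over all 22746 probe sets. COR27 and AT4G33980 carry most of the asterisks outside LTI30, COR47 and COR15A.

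The 3 genes varied together in part. Over the 12 root arrays LTI30 and COR47 correlated at r = 0.80, and over the 12 shoot arrays at 0.09. COR15A correlated with LTI30 at 0.51 and with COR47 at 0.40 over the shoot arrays, and at 0.08 and 0.12 over the root arrays, where it read near the bottom of its range. COR15A and COR15B correlated at 0.80 in shoots and at 0.62 in roots, where COR15B also read low, with group means of 4.72 to 4.94. These arrays share groups, treatments and RMA normalization, and the correlations are descriptions without a test.

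With the organ mean subtracted, each gene was set against the 13512 other probe sets with one named gene over the 24 arrays. For LTI30 the closest were AT5G15190 (r = 0.88) and EXLA1, an expansin-like gene (r = 0.87), followed by AT1G64890, AT5G39410 and AT5G17850 at 0.80 to 0.78, where 99% of probe sets lay below 0.58. EXLA1 read 8.05 ± 0.37 (SD, n = 3) in untreated and 5.90 ± 0.35 in treated WT roots, and 8.35 ± 0.87 and 6.70 ± 0.57 in WT shoots, so it was low on treated WT arrays of both organs as LTI30 was, but unlike LTI30 it read about as high in untreated shoots as in untreated roots. For COR47 the closest were AT3G20340 (r = 0.87), TKL (r = 0.84), AT5G47180 (r = 0.83), AT2G44300 (r = 0.82) and SCPL49 (r = 0.81), where 99% of probe sets lay below 0.60. Each correlated more strongly with COR47 in roots than in shoots, most unequally AT2G44300 (r = 0.95 and 0.39) and SCPL49 (r = 0.93 and 0.48). AT3G20340 averaged 8.81 ± 0.31 in untreated and 5.93 ± 0.26 in treated WT roots. For COR15A the closest were TBL26 (r = 0.81), COR15B (r = 0.77), OTP81 (r = 0.75), AT1G16850 (r = 0.74) and AT5G38890 (r = 0.73), where 99% of probe sets lay below 0.52. TBL26 read 7.99 ± 0.40 in treated mutant shoots and 6.19 ± 1.08 in treated WT shoots, a higher mean in the mutant as for COR15A. In untreated shoots TBL26 read 7.13 ± 1.07 in the mutant and 5.90 ± 0.40 in WT. Its WT mean was thus not lower under cadmium, unlike that of COR15A. AT5G38890 followed COR15A in shoots (r = 0.91). In roots, where the COR15A values may be background, r was -0.47.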

How the data were processed

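The deposited table holds log2 expression values. Per the submitters' processing notes the authors used RMA and affy. The sources used here give neither their versions nor whether the arrays were normalized together. All 24 columns matched a sample label. The 64 control probe sets were left out and 22746 kept, with no filter on level. The annotation supplied with the series lists a single gene for 13513 probe sets, several for 503 and none for 8730. Of the 13513, 13436 matched a RefSeq gene table for assembly TAIR10.1, and listed genes were matched by locus. In R 4.3.3, limma 3.58.1 estimated the 4 group means of an organ from its 12 arrays, and comparisons between organs came from a model of 24 arrays. Tests were two-sided, adjusted by Benjamini and Hochberg over all probe sets, and an adjusted p under 0.05 was called. An SD describes the 3 arrays of a group, an SE comes from limma, and the number of arrays limits the precision. The fit was tested on simulated data. Whether equal replicate numbers pair arrays was judged from the correlation of their residuals, which exceeded 0.1 in every pair for one comparison, treated roots between genotypes (0.11 to 0.64). The members and lists were chosen with earlier results of these data known. The text names the 3 genes, listed genes that passed, and the 5 genes most like each by Pearson correlation; values of further listed genes were named after they were seen. Alternatives were a level filter keeping 60% of probe sets, other scalings and fits, a trended and robust prior, array weights, the replicate block, the 25S control as a covariate or with a minimum of 7, and each array left out. Sequences were not used here.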

Additional observations from a re-analysis of the deposited data

Results flagged for a closer look

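For COR27 the cadmium response in shoots differed between the genotypes, by 2.74 log2 units (mutant minus WT). For AT4G33980 it differed by 1.73 in roots and 1.92 in shoots. Both shoot values passed without each of the 12 arrays in turn but not on high-25S arrays, where adjusted p was 0.305 for COR27 and 0.627 for AT4G33980 (limma). The root value did not pass there either (adjusted p = 0.0629, limma), nor without any one of 6 of the 12 arrays, which were untreated replicates 1 and 2 and treated replicate 2 of WT, and untreated replicates 2 and 3 and treated replicate 2 of the mutant (adjusted p up to 0.0682, limma). AT4G33980 also moved in opposite directions in the organs of the mutant, with every treated root array lower (-1.19) and every treated shoot array higher (0.68) than the untreated ones, a difference between organs that was not tested, because the hours of cadmium differ. The call of the 0.68 was lost without untreated replicate 3 or treated replicate 1 or 2 (adjusted p up to 0.0873, limma).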

How the results depend on the processing

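The 39 differences of LTI30, COR47 and COR15A had 658 values under other settings, of which 596 kept direction and side of the threshold, 21 lost the call, 16 gained it and 25 changed sign or reached 0. None of those 25 was called. They included values on high-25S arrays alone (LTI30, untreated roots between genotypes, 0.012 against -0.42; COR15A, treated roots between genotypes, 0, and under cadmium 0.23 in WT and 0.01 in mutant roots; COR47, mutation effect between organs, 0.027), with array weights (COR47, treated roots between genotypes, 0.015; COR15A in WT roots 0.15 and for the mutation effect between organs 0.13 against -0.40) and with the 25S covariate (COR15A in WT roots 0.14). The call of COR47 in WT roots was lost with median centring (-0.77) and the 25S covariate (-0.74). That of COR15A between treated shoots was lost on the compared arrays alone (2.16), with the covariate (2.08) and on high-25S arrays (2.61, adjusted p = 0.639, limma). Between treated shoots of the genotypes, residuals of arrays with equal replicate number correlated at 0.07 to 0.49. The 0.1 set for pairing was not exceeded in every pair, which does not show that the arrays were unpaired. With the replicate block the COR15A value was 2.16 with the call lost, and no other call of the 3 genes changed. COR47 between WT organs gave 0.54 with the covariate and 0.62 on high-25S arrays, both not called. Calls were gained with array weights for LTI30 in untreated shoots between genotypes (-1.27), in WT shoots under cadmium (-1.35) and in the shoot interaction (1.88), for COR15A in WT shoots (-1.44) and for COR47 between mutant organs (0.43), the last also with quantile scaling (0.55). LTI30 in WT shoots was also called after the level filter (-1.12) and with the covariate (-1.07). The causes were not tested.

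Without single arrays the ranges were, in roots, -0.81 to 0.012 (LTI30), 0.14 to 0.56 (COR47) and -0.04 to 0.33 (COR15A) between untreated genotypes, -0.11 to 0.057 (COR47) and -0.21 to 0.26 (COR15A) between treated genotypes, -0.88 to -0.69 (COR47) and -0.235 to 0.23 (COR15A) for cadmium in WT, -1.05 to -0.23 (LTI30) and -0.28 to 0.083 (COR15A) for cadmium in the mutant, and -0.61 to -0.18 (COR47) and -0.35 to 0.11 (COR15A) for the interaction. In shoots they were -1.35 to -0.72 (LTI30) and 0.32 to 0.84 (COR47) between untreated genotypes, 1.82 to 2.47 (COR15A) between treated genotypes, -1.49 to -0.86 (LTI30, WT) and -0.84 to -0.32 (COR47, mutant) for cadmium, and 1.62 to 2.25 (LTI30) and -0.66 to -0.15 (COR47) for the interaction. Between organs COR47 ranged from 0.53 to 0.72 in WT, 0.12 to 0.64 in the mutant and -0.50 to 0.02 for the mutation effect, which ranged from 0.17 to 0.99 for LTI30 and from -0.70 to -0.16 for COR15A. COR15B, never called within shoots, changed sign between untreated genotypes with array weights (-0.18) and without single arrays (-0.295 to 0.29), and for cadmium in WT shoots (-0.395 to 0.22). Called probe sets over the whole table are given with the lowest and highest count under other settings. Those settings included the high-25S arrays and the compared arrays alone. Called probe sets numbered 81 (36 to 561) between untreated roots and 395 (142 to 727) between treated roots. For cadmium in WT and mutant roots they numbered 889 (648 to 1837) and 970 (578 to 1952), and for the root interaction 170 (39 to 828). In shoots they numbered 331 (1 to 1850), 35 (1 to 228), 1270 (8 to 2926), 496 (2 to 1259) and 101 (0 to 1177) in the same order, and 173 (12 to 2176) for the mutation effect between organs. Array weights gave each highest count. Without single arrays the counts were, in the same order, 17 to 138, 116 to 250, 428 to 829, 608 to 710 and 41 to 243 in roots, 45 to 838, 13 to 31, 611 to 1695, 227 to 574 and 23 to 607 in shoots, and 71 to 394 for the mutation effect.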

Other observations

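A further 8 genes named for drought or cold or as LEA genes in the RefSeq table were read after the values of the listed genes had been seen. DI21, LEA27 and DI19 were higher in untreated roots than shoots, by 3.90, 3.39 and 0.71 log2 units in WT and by 4.13, 3.75 and 0.61 in the mutant, and all passed. In WT these were the only 3 of the 8 called between organs, and in the mutant 4 were higher, with LEA18 at 0.26, and SRC2 was lower in roots at -0.70, where 44.2% and 45.2% of all probe sets were called. The LEA18 call was lost without any one of the 6 arrays (adjusted p from 0.0551 to 0.111, limma). That of SRC2 was lost without untreated mutant root replicate 1 or 2 or shoot replicate 2 or 3 (adjusted p up to 0.237, limma). Neither was kept on the compared arrays alone (adjusted p = 0.0553 and 0.0986, limma) or on high-25S arrays (adjusted p = 0.0988 and 0.176, limma). LEA26, LEA4-1 and DOR were called in neither genotype. SRC2 read -0.68 under cadmium in WT roots and -0.64 in WT shoots, against 0.20 and 0.19 in the mutant, and none of these cadmium values passed.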
